A study of Mus musculus with 21 samples.

Results

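Epididymal white fat of conventionally raised mice was compared between the morning and the late night. The morning group was the 4 conventional libraries taken at zeitgeber time (ZT) 2 and 6 h after lights on, and the late night group was the 4 taken at ZT18 and ZT22. These 8 libraries, chosen by arm and time alone, are part of a series of 21 that also holds 4 conventional libraries at ZT10 and ZT14 and libraries of germ-free mice. Mice in every group were male C57BL/6j animals of 15-16 weeks that ate ad libitum, and the conventional ones carried a gut microbiota. The 2 libraries of each time carry the numbers 1 and 2. Whether they came from separate mice is not in the labels, and every p-value below rests on the spread among libraries, which may be technical. Replicate libraries of a time differed by more than counting noise (chi-square per degree of freedom of 25.2 to 37.2), so no pair looked like 1 library with repeated deposit; this does not tell separate mice from repeat preparations.

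Mice are nocturnal, and with food always present they eat mostly in the dark, so the late night closes the feeding phase and the morning opens the rest phase. White fat takes up fatty acids and glucose and stores them as triglyceride, makes some fatty acids and sterols of its own, and releases fatty acids by lipolysis when food is short. The genes of sterol synthesis are controlled together by the transcription factor SREBP2 and those of fatty acid synthesis by SREBP1 and ChREBP, while a molecular clock of transcriptional feedback runs in the same cells.

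The libraries held total counts of 24388294 to 34903306. Levels are CPM, counts scaled to a common library size with the TMM method of edgeR. They are not divided by gene length, so they compare samples and not genes. All 8 adipocyte markers on the list were detected, with summed levels of 19982 to 29463 CPM in the morning and 23733 to 30507 CPM late at night. Adipocyte RNA was thus abundant in every library, and the 2 ZT02 libraries gave the lowest adipocyte sums, 23185 and 19982 CPM. RNA of the adjoining male tract was also present. Markers of ciliated cells, which line the efferent ducts beside the epididymis, summed to 277 and 285 CPM at ZT02, 17.2 and 73.0 at ZT06, 12.3 and 217 at ZT18 and 29.4 and 94.3 at ZT22. Both ZT02 libraries were high, as was the ZT18 library numbered 2, so the phases overlapped (2-sided exact permutation over 70 relabellings, p = 0.486, adjusted p over 17 measures = 0.729). The smallest p that these 8 libraries allow is 0.0286. Liver markers summed to 37.5 to 651 CPM in the morning and 25.0 to 110 CPM late at night (exact permutation p = 0.229, adjusted p = 0.540), with the highest value in the ZT02 library numbered 2. All 20 ciliated cell markers and all 10 liver markers had counts in both phases.

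**Figure D1:**
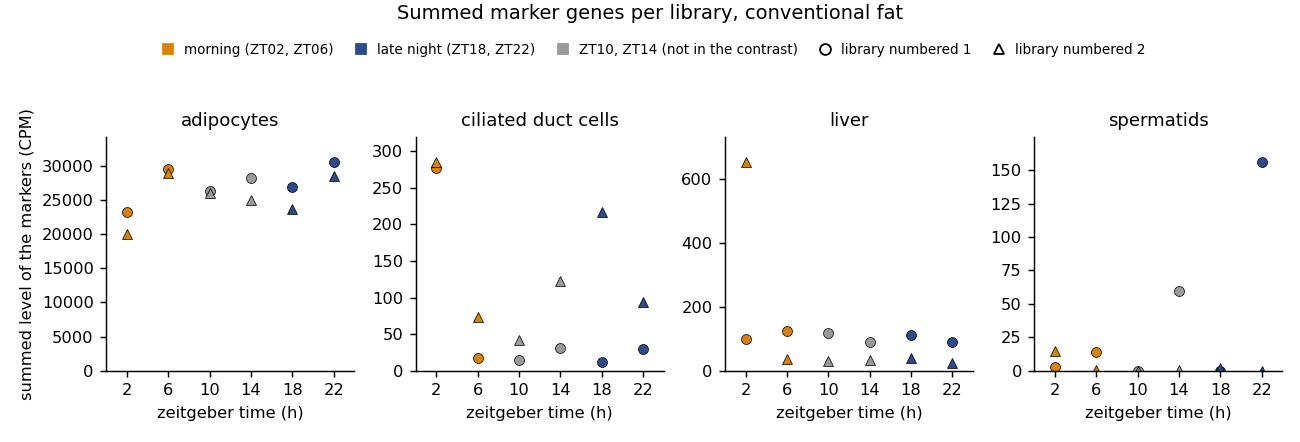
Summed level in CPM (y axis) of the marker genes of adipocytes, ciliated duct cells, liver and spermatids in each of the 12 conventional libraries against zeitgeber time in h (x axis); each point is 1 library and its shape gives the replicate number. Ciliated cell markers reached 277 and 285 CPM in the 2 ZT02 libraries and 217 CPM in 1 ZT18 library, and spermatid markers reached 156 CPM in 1 ZT22 library.

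Between the phases, Scd2, Fdps, Nsdhl and Lss, enzymes of fatty acid and sterol synthesis, were higher in the morning, and Thbs2, Fzd5, Trpv2, Atp2a3 and Tff2 were higher late at night. Of 18276 genes tested with edgeR's quasi-likelihood F test, 9 passed an adjusted p of 0.05 (Benjamini-Hochberg over all genes). Of these, 4 rose toward the morning, 0.0219% of the genes tested, and 5 fell, 0.0274%. The median log2 fold change (morning minus late night) over all genes was 0.01. The count was small and unstable: leaving out any 1 library gave 0 to 3, a replicate block gave 0, and DESeq2's Wald test passed 362 genes. At an unadjusted p under 0.05 there were 709 higher and 1028 lower genes. In 434 genes (2.37%) all 4 morning libraries lay above all 4 late night libraries, and in 650 genes (3.56%) all lay below. These shares are the background for each count of such genes given for a group. In bulk tissue a lower level in each cell and fewer cells of a type cannot be told apart.

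The 4 genes that rose all encode enzymes of lipid synthesis. Scd2, a stearoyl-CoA desaturase that puts a double bond into saturated fatty acids, stood at 568 and 533 CPM at ZT02 and 480 and 539 at ZT06, against 194 and 234 at ZT18 and 181 and 136 at ZT22. The lowest morning library was therefore well above the highest late night one, and the mean was 2.85-fold higher (log2 fold change 1.51, SE 0.15, adjusted p = 0.0374). Scd2 lies on chromosome 19, 44293674 to 44306864 on the plus strand (GRCm38).

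Fdps makes farnesyl diphosphate, the last shared building block before the sterol branch. Its levels were 33.0 and 33.7 CPM at ZT02 and 32.1 and 31.4 at ZT06, and 16.0, 15.9, 17.3 and 12.7 CPM in the ZT18 and ZT22 libraries. The 4 morning values lay close together, and the fold was 2.11 (log2 1.08, SE 0.10, adjusted p = 0.0347). Nsdhl, which removes methyl groups from sterol precursors, was 50.3 ± 4.33 CPM in the morning and 23.5 ± 3.76 CPM late at night (SD, n = 4 each), or 1.10 higher on the log2 scale (SE 0.12, adjusted p = 0.0398). Lss, the synthase that closes the sterol rings, was 52.6 ± 4.42 against 33.6 ± 2.16 CPM (log2 0.65, SE 0.08, adjusted p = 0.0398). No morning library of these genes overlapped a late night one. At ZT10 none of the 4 enzymes was above its late night range: Scd2 read 209 and 159 CPM, Nsdhl 23.3 and 19.3, Fdps 15.6 and 11.6 and Lss 33.1 and 28.9.

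**Figure D2:**
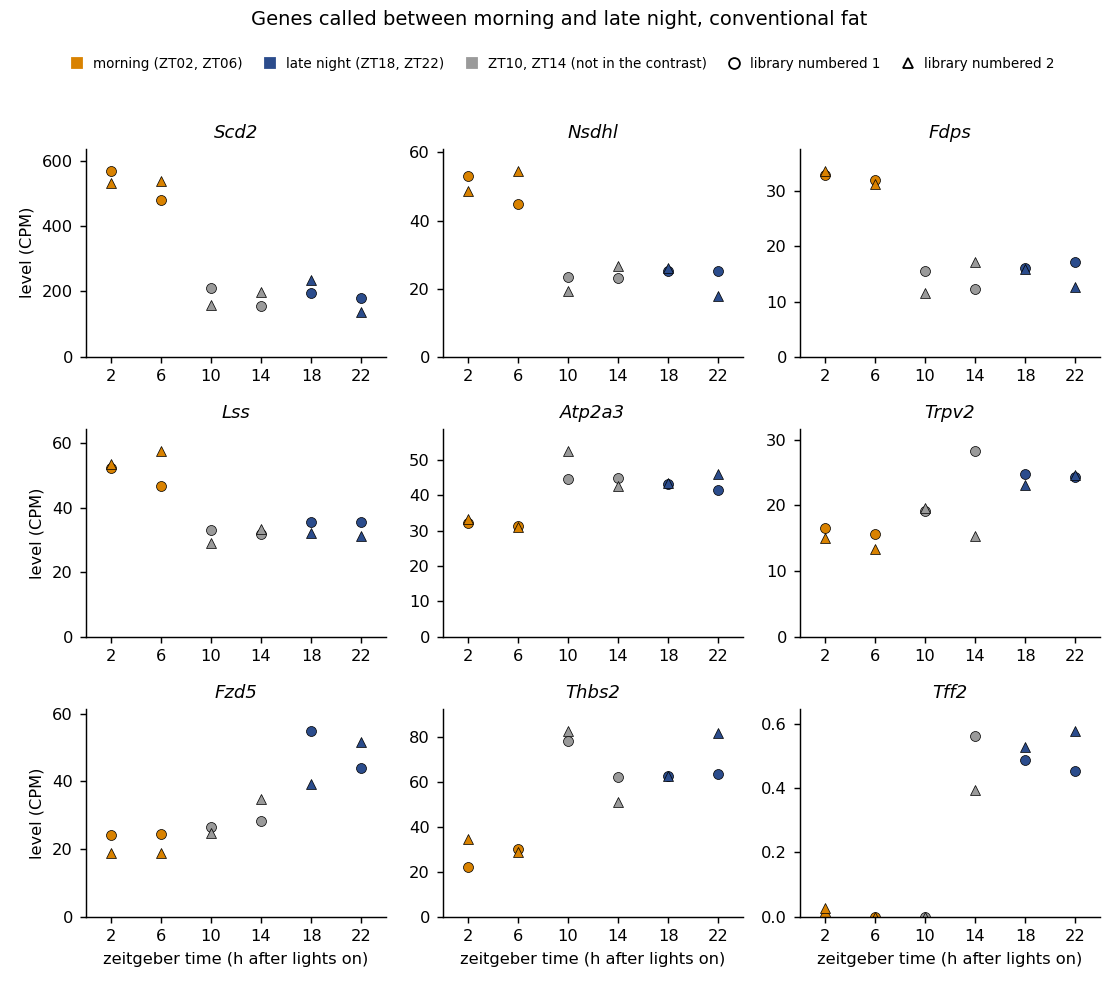
Level in CPM (y axis, from 0) of the 9 genes past the threshold, in each of the 12 conventional libraries against zeitgeber time in h (x axis); each point is 1 library. Scd2, Nsdhl, Fdps and Lss are high only at ZT02 and ZT06, and Tff2 has at most 1 count at ZT02 to ZT10 and 11 to 20 counts from ZT14 to ZT22.

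The genes that fell toward the morning had no single role. Thbs2, a matrix glycoprotein of the thrombospondin family, read 22.0 and 34.6 CPM at ZT02, 30.3 and 29.0 at ZT06, 62.5 and 62.9 at ZT18 and 63.6 and 82.0 at ZT22 (log2 fold change -1.22, SE 0.14, adjusted p = 0.0398). Fzd5, a receptor for Wnt ligands, was 21.7 ± 3.10 CPM in the morning and 47.4 ± 7.13 late at night (log2 -1.12, SE 0.14, adjusted p = 0.0398). Trpv2, a calcium-permeable channel, was 15.2 ± 1.29 against 24.2 ± 0.756 CPM, and Atp2a3, a calcium pump of the endoplasmic reticulum, was 32.0 ± 0.978 against 43.6 ± 1.82 CPM (SD, n = 4; log2 -0.67 and -0.44, adjusted p = 0.0398 for both in edgeR). Thbs2 and Atp2a3 were at late night levels or above already at ZT10, with 78.3 and 82.6 CPM and 44.6 and 52.5 CPM, whereas Fzd5 was at 26.5 and 24.9 CPM there, just above its highest morning value of 24.4 CPM.

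The fifth, Tff2, a secreted trefoil peptide best known from gastric mucus, was at the lower edge of detection and is named because so few genes passed; it falls outside the naming rule and was chosen after its values were seen. It had 0 counts in 3 morning libraries and 1 count in the ZT02 library numbered 2, against 11, 15, 12 and 20 counts in the ZT18 and ZT22 libraries (adjusted p = 0.0398). The ratio of the summed counts, 58 to 1, scaled to library size, was 70.8 with a 95% exact interval of 12.2 to 2843 that covers counting error only. The ZT10 libraries had 0 counts and the ZT14 libraries 17 and 11. The germ-free libraries, which took no part in that test, showed the same order: 0 counts in all 3 morning libraries and 27, 27 and 15 counts at ZT18 and ZT22. In a fit of both arms the germ-free contrast for Tff2 passed too (adjusted p = 0.0400), but in edgeR's test of the 6 germ-free libraries alone none of 18745 genes passed, with 1129 at an unadjusted p under 0.05.

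The 23 tested genes of cholesterol synthesis and uptake were described as a group. Of these, 3 (Fdps, Nsdhl and Lss) rose past the threshold and none fell. In 14 of 23 the morning libraries all lay above the late night ones, beside 2.37% of all genes, and in none did they lie below. The log2 fold change was above 0 in 22 of 23, with a median of 0.65. The early steps that make mevalonate and its phosphates were higher in Hmgcs1 (268.9 mean CPM in the morning, 186.5 late at night), Mvk, Pmvk, Mvd and Idi1 with no overlap, though none of these passed in the 8-library test. Of the steps after squalene, Sqle, the epoxidase, was at 33, 33, 18 and 25 CPM in the morning libraries and 11, 15, 13 and 9.7 CPM late at night (log2 1.17, SE 0.21, adjusted p = 0.173), and Cyp51, a sterol demethylase, was at 93, 85, 49 and 68 against 34, 34, 41 and 27 CPM (log2 1.13, SE 0.20, adjusted p = 0.173). Both had higher levels at ZT02 than at ZT06. Fdft1, which joins 2 farnesyl units into squalene, was the exception, with a log2 fold change of -0.05.

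Some sterol genes split the morning itself. Insig1, which holds SREBP back when sterol is ample, was 328 and 408 CPM at ZT02 and 168 and 181 at ZT06. Its log2 fold change was 0.80, and -0.03 without the 5 libraries richest in duct markers. That fit also drops both ZT02 libraries and leaves 1 morning library, at ZT06, against 2 late at night, all numbered 1. Duct RNA, time of sampling and library number cannot be told apart in it. Msmo1, an oxidase of the sterol pathway, was also higher at ZT02 than at ZT06, with 66 and 62 against 27.5 and 27.4 CPM. For such genes the difference between ZT02 and ZT06 counts as spread in a test of 4 against 4. A fit of all 12 conventional libraries with time as a factor takes the spread only from libraries of the same time, and compares the same 4 times. It passed 54 genes higher in the morning, 0.289% of those tested, and 71 lower, 0.38%. Among them were 12 of the 23 sterol genes, all higher: the 3 above, Sc5d, Cyp51, Sqle, Msmo1, Mvd, Hmgcs1, Insig1, Hsd17b7 and Pmvk. That list was chosen with results of these libraries known, so its direction is not independent evidence.

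Both ZT02 libraries carried much duct RNA, and the sterol values were recomputed with this in view. With the log2 sum of ciliated cell markers as a covariate, the median log2 fold change of the 23 genes was 0.57 and 22 of 23 stayed above 0. Without both ZT02 libraries, the median was 0.41 and 18 of 23 were above 0. The fit without the 5 libraries above 30 CPM of duct markers left 1 at ZT06 against 2 late at night, all numbered 1. Its median was 0.28, with 16 of 23 above 0. The last has 1 morning library, so only its log2 fold changes are given. The 9 genes past the threshold kept their direction in each of these fits. They were chosen in these same libraries and had no overlap of the phases, so leaving libraries out could hardly reverse them. Of the 9, 3 passed the adjusted threshold with the covariate and none without ZT02, where all 9 had an unadjusted p under 0.05. Each of these 2 fits also passed 1 gene that was not among the 9.

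**Figure D3:**
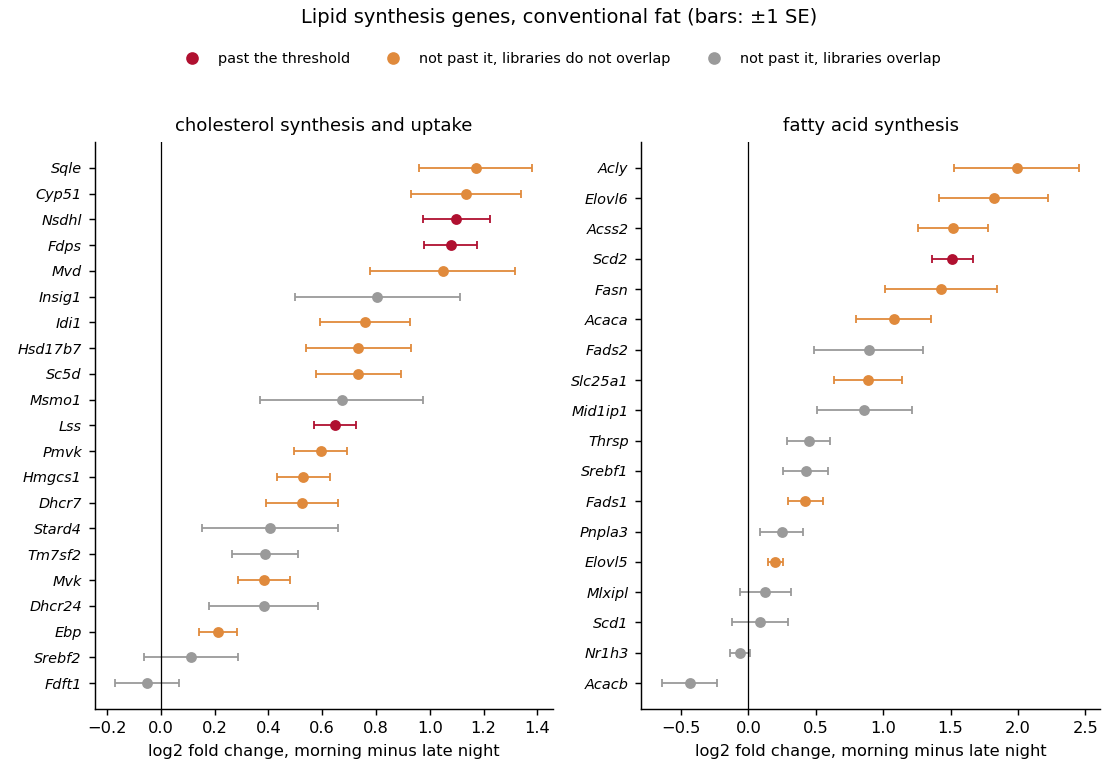
Log2 fold change, morning minus late night, with bars of 1 SE (x axis) for 21 genes of cholesterol synthesis and uptake (left) and of fatty acid synthesis (right, 18 genes) in the 8 conventional libraries. In the left panel 20 of 21 points lie right of 0 and in the right panel 16 of 18, and the 4 genes past the threshold have some of the shortest bars.

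Fatty acid synthesis followed in the same direction with wider spread. Of 18 tested genes, Scd2 alone passed, 9 had no overlap and were higher in the morning, none the reverse, and the median log2 fold change was 0.65 with 16 of 18 above 0. The median was 0.39 without both ZT02 libraries (17 of 18 above 0), 0.39 without the 5 libraries rich in duct markers (13 of 18) and 0.37 in the libraries numbered 1 alone (15 of 18). Acly, which makes cytosolic acetyl-CoA from citrate, was 1397 and 1691 CPM at ZT02 and 1636 and 3670 at ZT06, and 519, 372, 968 and 247 CPM late at night (log2 1.99, SE 0.46, adjusted p = 0.252). Fasn, the fatty acid synthase, was 6485 and 7004 CPM at ZT02 and 8764 and 14933 at ZT06, against 5515, 3191, 3688 and 1403 CPM late at night (log2 1.43, SE 0.42, adjusted p = 0.349). Elovl6, which lengthens palmitate, was 84, 107, 102 and 264 CPM against 40, 51, 46 and 21. The ZT06 library numbered 2 was the highest in all of these 3 genes. Unlike Insig1, Fasn and Acss2 had their highest values at ZT06, Acss2 with 191, 254, 303 and 422 CPM in the morning. For Acly this held in the ZT06 library numbered 2 only, and the other ZT06 library lay between the ZT02 values. In the 12-library fit Scd2, Acss2 and Elovl6 passed. Scd1, the abundant desaturase of fat, overlapped between the phases, with 16356 to 28115 CPM over the 8 libraries (log2 0.09, SE 0.21).

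NADPH is the reductant for both pathways. Of its 9 supply genes none passed in the 8-library test, and 4 had no overlap, all higher in the morning: Me1, the malic enzyme, at 464, 536, 715 and 1282 against 350, 286, 351 and 196 CPM, Tkt, Pgd and Idh1. G6pdx, the entry enzyme of the pentose phosphate pathway, overlapped (log2 0.06, SE 0.09). Me1 passed in the 12-library fit. Of 28 genes of triglyceride synthesis and lipid uptake none passed, and the median was 0.00. Agpat2 and Dgat2, acyltransferases of triglyceride synthesis, were higher in the morning without overlap (log2 0.85 and 0.58) and passed with Acsl3 in the 12-library fit, whereas Lpl and Fabp4, which handle incoming fatty acids, had log2 fold changes of -0.07 and -0.42 with overlap. Angptl4, an inhibitor of lipoprotein lipase, read 176, 148, 437 and 322 CPM in the morning and 608, 448, 602 and 671 late at night (log2 -1.10, SE 0.33, adjusted p = 0.352).

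Genes of lipolysis and its control lay on the other side. The list mixes genes that promote lipolysis with genes that restrain it, so its values give no direction for lipolysis itself. None of 19 passed, 3 had no overlap and were lower in the morning, beside 3.56% of all genes, and 2 of 19 log2 fold changes were above 0 (median -0.22). The size depended on the morning time: the median was -0.06 without both ZT02 libraries, with 6 of 19 above 0, and -0.52 without both ZT06 libraries, and it was -0.34 without either single ZT06 library. The ZT02 libraries also had the lowest adipocyte marker sums, whose part in this was not tested. Pnpla2, the first lipase of triglyceride breakdown, was 961 and 673 CPM at ZT02, 1030.4 and 905 at ZT06, 1742 and 1207 at ZT18 and 1362 and 1540 at ZT22, so that the lowest late night library exceeded the highest morning one (log2 -0.71, SE 0.16, adjusted p = 0.237). Another was Adrb1, a β-adrenergic receptor (log2 -0.68). Lipe and Ces1d, also lipases, overlapped. Of 22 tested genes of glucose uptake and glycolysis none passed, and 18 had a log2 fold change above 0 (median 0.21). In edgeR's test 10 were higher and 2 lower in the morning at an unadjusted p under 0.05. Without overlap 1 was higher and 2 were lower. The 2 lower were Pdk4 and Pdk2, kinases that keep pyruvate out of oxidation (log2 -1.11 and -0.53). Pdk4 read 28, 23, 28 and 29 CPM in the morning and 74, 32, 60 and 68 CPM late at night (adjusted p = 0.196). Of 18 glycogen genes tested, 3 lay higher in the morning without overlap, beside 2.37% of all genes, among them Gys2 and Gbe1 (log2 1.08 and 0.50). None lay lower without overlap, and the median of the 18 was 0.07 with 12 above 0.

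The clock list gave a check of sampling time. None of its 21 genes passed in the 8-library test, 5 had an unadjusted p under 0.05 and were higher in the morning and 4 lower, and the spread between times within a phase was wide. Cry1, a repressor of the clock, was 9.44 and 11.2 CPM at ZT02, 7.5 and 8.18 at ZT06, 30.5 and 26.6 at ZT18 and 12.8 and 14.5 at ZT22, with no overlap (log2 -1.21, SE 0.29, adjusted p = 0.263). Per2, another repressor, was 109 and 82 CPM at ZT18 but 13 and 18 at ZT22, below its 26.6 and 21.5 at ZT02. Nr1d1, which encodes the repressor REV-ERBα, was 60.2, 37.5, 94.2 and 99.4 CPM in the morning libraries, 4.97 and 8.89 at ZT18 and 37.7 and 31.9 at ZT22. The 12-library fit passed Nr1d1 and Dbp as higher in the morning (log2 2.14 and 1.20) and Per2 and Cry1 as lower (-0.92 and -1.13). Without both ZT18 libraries Per2 was higher in the morning (log2 0.39).

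Arntl, the activator BMAL1, was 23.8 and 27.1 CPM at ZT02, 15.1 and 15.4 at ZT06, 31.0 and 21.4 at ZT18 and 30.5 and 29.7 at ZT22, a log2 fold change of -0.46 that did not pass. Its 4 ZT10 and ZT14 libraries held 3.0 to 7.74 CPM, so both phases of the contrast were on the high side of its daily range. Clock and Npas2, its partners, had log2 fold changes of -0.07 and 0.16. The other repressors, Per1, Per3 and Cry2, read -0.51, -0.07 and -0.23, and Nr1d2 and Rora, nuclear receptors of the clock, read 0.66 and -0.13. Of the output factors Dbp, Tef, Hlf, Nfil3 and Ciart the log2 fold changes were 1.32, 0.06, -0.41, -0.35 and 0.64. Bhlhe40 and Bhlhe41, which act on E-boxes as repressors, were at 1.03 and 0.79. Csnk1d, a kinase that marks PER proteins for turnover, was lower without overlap with a log2 fold change of -0.09, and Csnk1e read -0.16. In every clock gene but Cry1 and Csnk1d the libraries of the 2 phases overlapped.

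**Figure D4:**
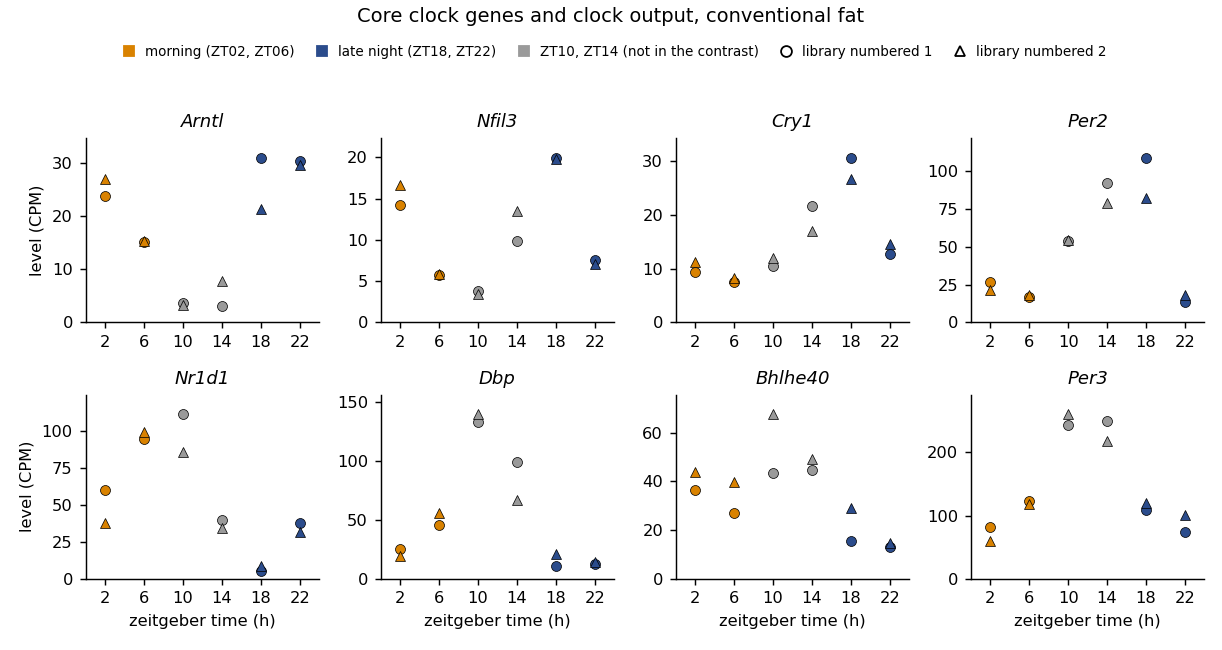
Level in CPM (y axis, from 0) of 8 clock genes in each of the 12 conventional libraries against zeitgeber time in h (x axis); each point is 1 library. Per2 and Cry1 peak at ZT18 and are lower at ZT22, where Cry1 stays above its morning values. Nr1d1 is lowest at ZT18, and Arntl and Nfil3 differ within the morning and within the night.

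Promoter letters were read for the genes with a RefSeq window, 250 bases before to 50 after the annotated start (build GRCm38.p6), which 12038 of the 18276 tested genes have. The E-box CACGTG, bound by BMAL1 and CLOCK, was found on either strand in 5 of the 17 clock list genes with a window (29.4%), beside 11% of all tested genes. The D-box TTATGTAA, bound by DBP and its relatives, was in 1 of 17, beside 0.781%, and TAGGTCA, bound by ROR and REV-ERB, in 2 of 17, beside 2.33%. The sterol regulatory element, searched as TCACNCCAC and added after seeing the data, was in 1 of 16 sterol genes, beside 1.44%, and the cAMP element TGACGTCA in none of these 16, beside 3.26%. The most frequent motif in these 16 was the E-box, in 4 (25%, beside 11%), followed by the heat shock element in 2. Among genes without overlap, an E-box was in 12.8% of those higher and 10.7% of those lower in the morning. The heat shock element GAANNTTC was in 10 of 15 chaperone genes and 7.19% of all. Of the 4 genes that rose, Nsdhl and Lss had a window, and neither held any of the 6 motifs. A match is a description of these letters and not a binding site. The 250 bases before the start are shown for the repressor Cry1 at chr10:85185055-85185304 (minus strand), for Per3 at chr4:151044666-151044915 (minus strand), and for Hmgcs1 at chr13:119690101-119690350 (plus strand), because each holds a searched motif of its pathway; capitals mark the E-box in Cry1, both D-boxes in Per3 and the sterol element in Hmgcs1.
Cry1: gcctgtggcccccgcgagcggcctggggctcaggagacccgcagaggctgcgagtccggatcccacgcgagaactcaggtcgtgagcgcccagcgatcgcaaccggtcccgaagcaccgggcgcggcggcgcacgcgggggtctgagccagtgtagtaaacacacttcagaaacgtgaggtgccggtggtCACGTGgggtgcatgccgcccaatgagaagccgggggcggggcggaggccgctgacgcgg
Per3: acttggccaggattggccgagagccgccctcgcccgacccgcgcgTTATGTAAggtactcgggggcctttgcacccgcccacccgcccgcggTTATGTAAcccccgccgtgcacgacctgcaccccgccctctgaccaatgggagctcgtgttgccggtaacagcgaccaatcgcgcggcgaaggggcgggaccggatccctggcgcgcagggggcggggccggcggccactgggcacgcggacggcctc
Hmgcs1: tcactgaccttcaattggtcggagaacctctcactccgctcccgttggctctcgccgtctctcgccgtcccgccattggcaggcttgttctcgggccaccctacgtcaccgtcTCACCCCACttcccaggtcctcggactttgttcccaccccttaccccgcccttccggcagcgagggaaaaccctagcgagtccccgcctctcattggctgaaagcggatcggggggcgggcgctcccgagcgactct

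Among the stress and matrix lists, no gene passed in the 8-library test. Asns, which makes asparagine and responds to amino acid shortage, was 78.9, 77.3, 79.9 and 83.0 CPM in the morning and 115, 102, 139 and 127 late at night (log2 -0.60, SE 0.09, adjusted p = 0.157), and it passed in the 12-library fit. It was 1 of 5 genes of 28 in the endoplasmic reticulum and amino acid stress list that were lower in the morning without overlap, with Sel1l, Edem1, Atf6 and Pdia4, and 1 of the 28 log2 fold changes was above 0 (median -0.21). That order rested on ZT18: without its 2 libraries 15 of 28 were above 0 and the median was 0.01. Of 29 extracellular matrix genes, Postn and Lox were lower in the morning without overlap, 2 of 29 beside 3.56% of all genes. The median of the 29 was -0.03 with 11 above 0, and Postn passed in the 12-library fit (log2 -0.41). Heat shock chaperones had a median of -0.24 over 20 genes with no gene at an unadjusted p under 0.05, and Hspa8 read 999 and 884 CPM at ZT02 and 1468 and 1279 at ZT18. This too rested on ZT18: the median was -0.06 without its library numbered 1 and 0.13 without both, with 17 of 20 above 0. Oxidative phosphorylation genes were above 0 in 25 of 25 (median 0.11), none without overlap, and without the 2 ZT06 libraries in 6 of 25. Of 25 proteasome genes all were above 0, with 10 at an unadjusted p under 0.05 and a median of 0.20 that was 0.09 without the 2 ZT06 libraries, and of these Psma1 passed in the 12-library fit.

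In the germ-free libraries, 3 from the morning and 3 from late night, the phase contrast had the other sign for most lipid synthesis genes. Their times were unevenly held. ZT02 and ZT18 had only the library numbered 2, ZT06 and ZT22 had both, and the conventional arm had 2 libraries at each time. The part of this imbalance in the difference was not tested. In a fit of 14 libraries with an arm-by-phase term, 23 of 23 sterol genes had a germ-free log2 fold change below 0 (median -0.53), beside 10248 of 18276 genes, while 22 of 23 were above 0 in conventional mice (median 0.65). For fatty acid synthesis 18 of 18 were below 0 (median -0.88). The difference between the arms did not pass for any of 19788 genes tested (smallest adjusted p = 0.133, with 2095 at an unadjusted p under 0.05), and DESeq2's Wald test passed 378. In edgeR 18 of 23 sterol and 15 of 18 fatty acid synthesis genes had an unadjusted p under 0.05 for this difference. Over all genes it was 2010 of 18276. Both lists were chosen with earlier results of these data known. Much of the germ-free contrast came from the ZT22 library numbered 2, where Scd2 reached 1588 CPM, against 331 and 489 in the other late night and 323, 598 and 362 in the morning germ-free libraries. Without it 21 of 23 sterol genes and 12 of 18 fatty acid synthesis genes were below 0, with medians of -0.29 and -0.23, and Scd2 and Fdps each had a germ-free log2 fold change of 0.04. The difference between arms then had an unadjusted p under 0.05 in edgeR for 18 of 23 and 10 of 18, beside 1484 of 18276 genes. Markers of the male tract also differed among the germ-free libraries: ciliated cell markers summed to 639 CPM in the ZT22 library numbered 1 and 325 CPM in the ZT06 library numbered 2, against 11.4 to 31.5 CPM in the other 4, and epididymal epithelium markers to 458 and 406 CPM in the 2 ZT22 libraries, against 2.73 to 20.2 CPM. That ZT22 library numbered 1 also had the lowest adipocyte sum, 20422 CPM. For the difference between arms, edgeR passed 0 genes with the duct marker covariate and 2 without the ZT22 library numbered 1. The part of this RNA in the germ-free contrast itself, and that of epididymal RNA in either, was not tested. By edgeR in the fit of all 14 libraries, the contrast was not shown to differ between the arms for any single gene.

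**Figure D5:**
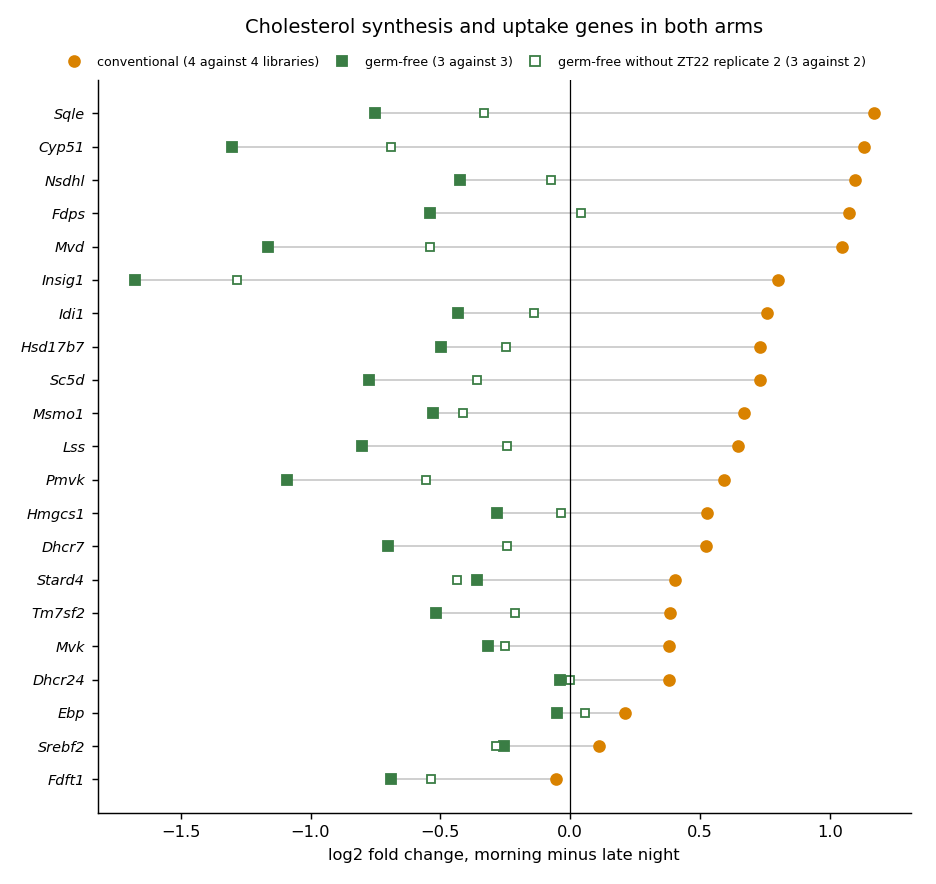
Log2 fold change, morning minus late night, of 21 sterol genes (x axis) in conventional mice, in germ-free mice, and in germ-free mice without the ZT22 library numbered 2, each from a fit of both arms. In conventional mice 20 of these 21 lie above 0, in germ-free mice 21 of 21 below 0, and without that library 19 of 21.

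With pseudogenes and placeholder gene models skipped, the lowest 5 p-values for the difference between arms belonged to Ccn1, Rnf19b, Cpeb1, Thbs2 and Adra1d. Their adjusted p in edgeR was 0.133 to 0.143. Thbs2 was lower in the conventional morning and had the other order in germ-free fat, with 53.1, 32.5 and 33.0 CPM in the morning and 28.6, 28.9 and 20.7 CPM late at night (difference 1.81 on the log2 scale). Ccn1, a secreted matrix protein of the immediate early class, was 13.9, 15.9, 14.1 and 13.6 CPM in the conventional morning and 24.0, 24.3, 19.1 and 25.5 late at night, and 28.2, 19.5 and 21.5 against 9.87, 15.4 and 10.9 CPM in germ-free fat. Cpeb1, which binds mRNA, and Adra1d, an α-adrenergic receptor, also had non-overlapping phases of opposite order in the 2 arms (difference 0.78 and 1.34). Rnf19b, a ubiquitin ligase, had a difference of 0.92. None of these differences passed. The genes were picked by the p for this difference, so an opposite order in the arms goes with that choice.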

How the data were processed

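Total RNA of epididymal white fat was sequenced after removal of ribosomal RNA with a stranded kit, per the labels' protocols. The submitters' processing notes name STAR 2.4.0i and genome build mm10, and no source used here names the read counter or its settings. The authors deposited a table of raw read counts for 38087 genes, used as deposited. Reads of near-identical or overlapping genes therefore may be split. Columns came from 21 libraries. Symbols were matched by identifier for 36308 genes, and positions came from GENCODE M21 (GRCm38).

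The 8 libraries were tested with edgeR 4.0.16 in R 4.3.3: filterByExpr, TMM scaling, quasi-likelihood F test of phase, Benjamini-Hochberg adjusted p under 0.05. The germ-free comparison used 14 libraries and an arm-by-phase term. Alternatives used DESeq2 1.42.0 and limma 3.58.1. The test was also run on simulated counts of independent libraries with a phase effect only. These lacked the differences between times within a phase, so they do not check the genes called here. Marker sums used log2 with a pseudocount of 0.5 and exact permutation.

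Genes named were the 12 highest and 12 lowest called genes (mean log2 CPM 1 or more, no overlap), clock genes, up to 4 list members that passed and 2 that did not, and the 5 with the smallest p for the arm difference. Pseudogenes and placeholder gene models were skipped among the called genes and these 5. Markers of cells other than adipocytes were skipped among the called genes. List members without overlap, those passing in the 12-library fit and the others were named after their values were seen. The contrast and the lists were chosen with earlier results of these data known. Values of some genes are not reported here. Low counts limit genes below 1 CPM.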

Additional observations from a re-analysis of the deposited data

Results flagged for a closer look

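Of 202 groups of 4 libraries checked, 17 held a library that stood apart from the other 3 by Dixon's criterion on the gap to the next value; chance alone flags about 1 group in 20. Among genes past the threshold, Nsdhl stood apart in the ZT22 library numbered 2, at 17.9 CPM against 25 to 26 in the other late night libraries, and Thbs2 in the same library, at 82.0 against 62.5 to 63.6 CPM. Both gaps lay on the side away from the morning values. Tff2 had 0.0283 CPM in 1 ZT02 library and 0 in the other 3 morning libraries.

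Of the clock genes, Arntl read 21.4 CPM and Bhlhe40 28.9 CPM in the ZT18 library numbered 2, against 29.7 to 31.0 and 13.0 to 15.3 CPM in the other late night libraries. Nr1d2 read 37.2 CPM in the ZT18 library numbered 1 (others 57.1 to 60.5), and Tef 144 CPM in the ZT02 library numbered 2 (other morning libraries 190 to 199). Hmgcs1 was highest at 324 CPM in the ZT06 library numbered 2 (others 245 to 257). The ZT18 library numbered 1 also held the farthest late night values of Nadk (345 CPM) and Pcna (31.1 CPM), and the ZT22 library numbered 1 those of Psmd1 (177 CPM) and Igf1 (675 CPM).

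Summed markers of other tissues stood apart in single libraries. Epididymal epithelium reached 37.4 CPM and exocrine pancreas 16.4 CPM in the ZT18 library numbered 2, spermatids 156 CPM in the ZT22 library numbered 1, liver 651 CPM in the ZT02 library numbered 2 and red blood cells 1136 CPM in the ZT06 library numbered 1. Their part in the gene results was not tested.

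Thbs2, Ccn1, Cpeb1 and Adra1d had phases that did not overlap and stood in opposite order in the 2 arms. All are among the 5 genes picked by the smallest p for that difference, so such an order goes with their selection. How many of all genes share it was not counted. The differences, germ-free minus conventional, were 1.81, 1.62, 0.78 and 1.34 on the log2 scale, and none passed in edgeR (adjusted p of 0.133 to 0.143).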

How the results depend on the processing

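Of the alternatives, edgeR with DESeq2 size factors (9 genes past the threshold), no filter on low counts (8) and a mean of at least 1 CPM (8) kept the count near the 9 reported. The number was 362 with DESeq2's Wald test, 3 with limma voom, 20 with time as a 4-level factor and 125 with all 12 conventional libraries. It was 1 without both ZT02 libraries, 0 without both ZT06 libraries, 0 without both ZT18 libraries, 2 without both ZT22 libraries, and 0 with the libraries numbered 1 or 2 alone. The duct marker covariate gave 4. Leaving out the 5 libraries over 30 CPM of duct markers was chosen after seeing the data. It left 1 morning library, so no count is given for it. Leaving out 1 library gave 0 for either ZT02 library, ZT06 replicate 2, ZT18 replicate 1 or ZT22 replicate 1, 1 for ZT06 replicate 1, 2 for ZT18 replicate 2 and 3 for ZT22 replicate 2. Every one of the 9 genes kept its direction in each alternative in which it was tested. None of the 9 overlapped between the phases in these same libraries, so leaving libraries out could hardly reverse them. The kept direction is therefore not separate evidence. Of named genes that passed only in the 12-library fit, Per2 ranged from -2.20 to 0.39 and Insig1 from -0.03 to 1.24 on the log2 scale.

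With a replicate block the count was 0, with 1621 genes at an unadjusted p under 0.05 against 1737 without it, and with the block and the duct covariate it was 0. Libraries of the same number deviated together at ZT06, ZT18 and ZT22 (correlations of 0.41 to 0.56 over 13847 genes) but not between ZT02 and these times (-0.18 to 0.07), and the labels tie the numbers to no batch, so they were not treated as pairs. For the difference between the arms the count was 0 with DESeq2 size factors, no filter, the replicate block or the duct covariate, 378 with DESeq2's Wald test, and 0 to 2 with 1 library left out, the 2 without germ-free ZT22 replicate 1. The cause of these changes was not tested. With 4 libraries a phase, a count of 9 that 1 library can take to 0 limits what the threshold separates, and genes near 1 CPM carry the most counting error.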

Other observations

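Outside the lists, the 12-library fit named further genes, chosen here after their values were seen. Nnat, an imprinted gene known from neurons and fat, was 449, 532, 665 and 364 CPM in the morning libraries and 1365, 1432, 1067 and 1506 CPM late at night. Peg3, also imprinted, was 93, 128, 114 and 93 CPM against 161, 133, 211 and 326 CPM. In both genes every late night library lay above every morning one (adjusted p = 0.0300 and 0.0442 in that fit, 0.0746 and 0.332 in the 8-library test). Prelp, a small matrix proteoglycan, was 210, 181, 214 and 179 CPM in the morning and 560, 630, 247 and 427 CPM late at night. Among lipid genes outside the lists, Pank3, a kinase of coenzyme A synthesis, and Gpat3, an acyltransferase of triglyceride synthesis, were higher in the morning without overlap (log2 0.50 and 0.64).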
